A study of Homo sapiens with 4 samples.

Results

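The mitochondrial ribosomal protein genes were taken as every gene whose symbol is MRPL or MRPS followed by a number and an optional letter A to C, which left out the pseudogenes and gave 78 of the 61806 genes in the table. RNA had been sequenced from JJ012, a human chondrosarcoma cell line, and 143B, a human osteosarcoma cell line, both kept in suspension without attachment. For each line there was 1 untreated control library and 1 library from cells given 1 mM melatonin for 72 h, so that the 4 libraries held 1 library per condition and no replicate error or test is given within a line. All libraries came from poly(A)-selected RNA, and no genetic change is named in the labels of either line. Of the chondrocyte markers, COL2A1 and ACAN were at or below 0.11 FPKM in all 4 libraries. SOX9 had 15.1 FPKM in the JJ012 control, 6.16 FPKM after melatonin, 15.5 FPKM in the 143B control and 12.1 FPKM after melatonin. COL11A1 had 22.9 FPKM in the JJ012 control and 3.24 FPKM after melatonin, and was listed at 0 in both 143B libraries. Of the osteoblast markers in 143B, SP7 and IBSP were at or below 0.02 FPKM while RUNX2 was at 4.28 FPKM in the control and 2.75 FPKM after melatonin. Some osteoblast markers went against the labels and were higher in the JJ012 control than in the 143B control, with 79.4 against 0.40 FPKM for SPP1 and 10.9 against 0.49 FPKM for COL1A1, while COL1A2 had 12.5 FPKM in the former and was listed at 0 in the latter. After melatonin, JJ012 had 64.5 FPKM of SPP1, 0.77 FPKM of COL1A1 and 0.14 FPKM of COL1A2.

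The mitochondrial ribosome makes the few proteins that the mitochondrial DNA encodes, all of which are parts of the respiratory chain and the ATP synthase. Its ribosomal RNAs are transcribed inside the mitochondrion, whereas its proteins are encoded by nuclear genes, made in the cytosol and imported, so that RNA from both genomes has to be supplied. Many of these proteins descend from bacterial ribosomal proteins, while others are specific to mitochondria and have no bacterial counterpart.

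The 4 libraries held between 15889564 and 19218343 counts, and 13198 to 14477 genes per library reached 1 FPKM (counts normalized to exonic length in kilobases and to the library total). The share of counts on mitochondrially encoded genes was 6.78% and 4.35% for the control and treated JJ012 libraries, and 1.63% and 2.46% for those of 143B. A log2 fold change is log2 of (FPKM + 1) in 1 library over (FPKM + 1) in the other, which understates the change of low genes. A gene was tested if it reached 1 FPKM in at least 1 of the libraries compared, and it was counted as changed from an absolute log2 fold change of 0.58. Exact 95% intervals of the ratio of counts normalized to library totals (CPM) are given on the log2 scale for single genes, and they cover counting error only. The control libraries are shared between comparisons, so the difference between the control lines and the response to melatonin are given side by side. No correlation or overlap between them is given. Where the lines are said to come nearer after melatonin, this describes levels that rest on 1 control library per line. Whether the lines converge was not tested.

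The members were moderately expressed, and higher per gene in JJ012 than in 143B. Their summed level was 1380 FPKM in JJ012 without and 1178 FPKM with melatonin, against 829 FPKM in the 143B control and 903 FPKM after melatonin. The median member stood at 13.9 FPKM in the JJ012 control, 10.7 FPKM in melatonin-treated JJ012, 6.50 FPKM in the 143B control and 7.12 FPKM in melatonin-treated 143B. The 143B libraries were thus both below the JJ012 libraries. For scale, the median cytosolic ribosomal protein gene ran between 68.3 and 186 FPKM and the median nuclear subunit of the respiratory chain and ATP synthase (OXPHOS) between 10.4 and 24.0 FPKM in the same libraries. As a share of all counts, the members made up 0.293% and 0.264% in control and treated JJ012, and 0.224% and 0.234% in control and treated 143B.

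MRPS21 (ENSG00000266472), a small-subunit protein with a bacterial homolog, had the highest mean level, at 105 FPKM in the JJ012 control, 77.9 FPKM after melatonin, 37.5 FPKM in the 143B control and 43.6 FPKM after melatonin. It was in the first or second place in every library. MRPL41 (ENSG00000182154), a large-subunit protein without a bacterial counterpart, followed with 112, 74.7, 26.4 and 33.3 FPKM in the same order of libraries. MRPS6 (ENSG00000243927), the homolog of bacterial S6, behaved differently from these, with 31.6 FPKM in the JJ012 control and 15.3 FPKM after melatonin against 79.2 FPKM in the 143B control and 44.1 FPKM after melatonin. It was the highest member in both 143B libraries and only in place 8 and place 30 in the JJ012 libraries. MRPS34, a mitochondria-specific small-subunit protein, had 65.9, 35.2, 30.4 and 30.6 FPKM, and MRPL51, mitochondria-specific in the large subunit, had 48.6, 35.4, 23.7 and 26.5 FPKM. At the other end MRPL53 was below 1 FPKM in all libraries and left 77 members tested in each comparison. It had 13, 4, 2 and 4 counts, so a change in it was not detectable at this depth. MRPL46, MRPS11, MRPL38 and MRPS25 were the next lowest, with 0.78 to 3.39 FPKM in any library.

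**Figure D1:**
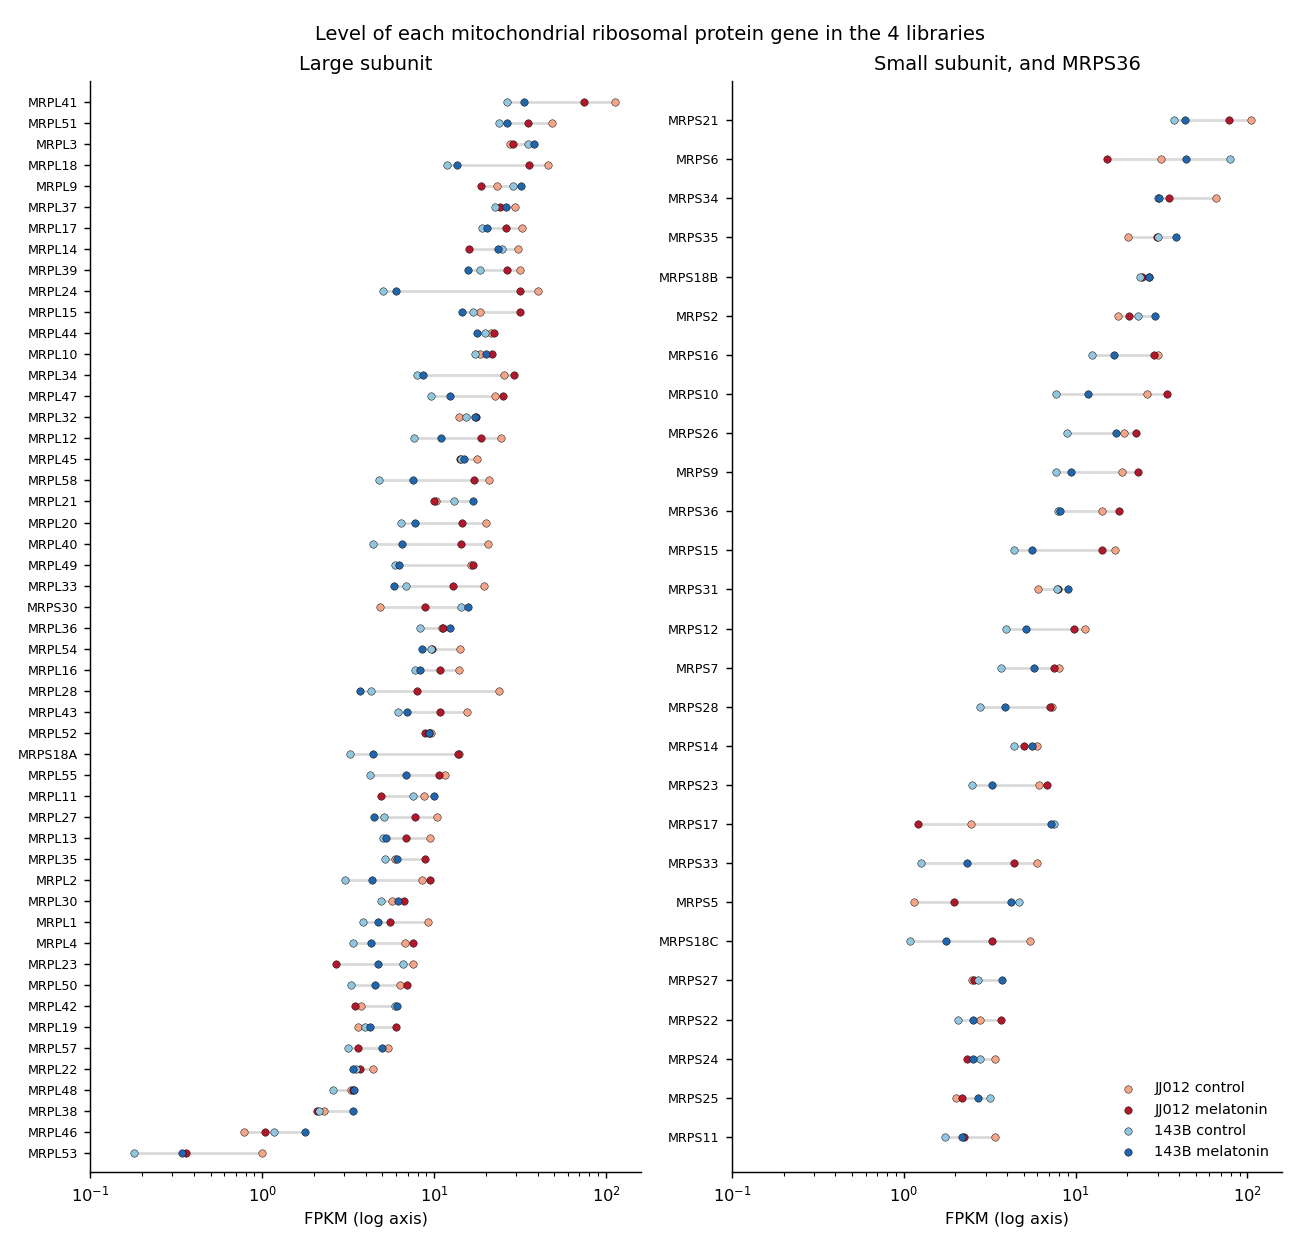
FPKM (log axis) of each of the 78 members in the 4 libraries, sorted by mean level within the large subunit (left) and the small subunit with MRPS36 (right); grey lines join the lowest and the highest library. Most members lie higher in JJ012 (red and orange) than in 143B (blue), while MRPS6, MRPS5, MRPS17 and MRPS30 lie the other way.

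By current assignment 51 members are large-subunit proteins, MRPS30 and MRPS18A among them despite their names, and 26 are small-subunit proteins. MRPS36, now known as a part of the 2-oxoglutarate dehydrogenase complex, was put in neither. The small subunit supplied 32.8% of the summed FPKM in control and 33.4% in treated JJ012, against 38.3% and 37.1% in 143B. MRPS6 alone supplied 79.2 of the 318 FPKM of small-subunit genes in the 143B control. The order of the members was kept within a line (Spearman's rho across the 78 genes 0.93 between the JJ012 libraries and 0.97 between the 143B libraries) more closely than between lines (0.76 to 0.82). These are correlations across genes, which share the exonic lengths and are not independent replicates.

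Promoter windows of RefSeq (GRCh38.p14, 250 bases before to 50 bases after the annotated start of transcription, the first listed window of a gene) matched 69 of the 78 members. MRPL2, MRPL10, MRPL13, MRPL15, MRPL21, MRPL23, MRPL35, MRPS28 and MRPS36 had no window in that table. Both strands were searched for CCGGAAG, a core of ETS factors such as GABPA, for AAGATGGCG, a core of YY1, for GCGCANGCG, a core of NRF1, for GGGCGG, a core of SP1, and for the E-box CACGTG. The ETS letters were in 29 of the 69 windows (42.0%), against 10.7% of the windows of all 27305 genes and 18.9% of those of genes with at least 1 FPKM in any library. The YY1 letters were in 13 windows (18.8%), against 1.85% and 3.83%. The NRF1 letters were also in 13 windows (18.8%), against 8.05% and 14.4%. SP1 letters (60.9% of members, 44.6% of all genes, 69.1% of genes with at least 1 FPKM) and the E-box (8.70%, 7.43% and 9.84%) were less apart. ETS matches had a median position of -22 bases and YY1 matches of 9.5 bases from the start. In no member did an ETS and a YY1 match share letters. Other lists also held these letters often. In the windows of nuclear subunits of the respiratory chain and of cytosolic ribosomal proteins, the shares were 29.4% and 34.3% for ETS, 11.8% and 8.96% for YY1, and 33.8% and 11.9% for NRF1. A match is a description of the letters and not of a factor bound there.

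Windows of 5 members on which the results turn are printed below, 5′ to 3′ on the strand of the gene, with the matches in capitals. MRPS26 (chr20:3045802-3046101, plus strand) had the largest rise in 143B, MRPL28 (chr16:370489-370788, minus strand) the largest fall in JJ012, MRPS34 (chr16:1773085-1773384, minus strand) fell in JJ012 and holds 3 ETS matches, MRPS6 (chr21:34073328-34073627, plus strand) fell in both lines and holds 9 SP1 matches and no ETS, YY1 or NRF1 match, and MRPS10 (chr6:42217812-42218111, minus strand), chosen after its values were seen, holds an ETS and a YY1 match (CCGGAAG and AAGATGGCG in capitals).
MRPS26: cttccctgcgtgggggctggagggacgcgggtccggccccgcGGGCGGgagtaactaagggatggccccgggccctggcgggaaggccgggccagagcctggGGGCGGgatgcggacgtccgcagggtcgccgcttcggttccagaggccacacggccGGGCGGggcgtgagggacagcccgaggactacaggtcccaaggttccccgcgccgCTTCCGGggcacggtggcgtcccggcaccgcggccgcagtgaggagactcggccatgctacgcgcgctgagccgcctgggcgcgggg
MRPL28: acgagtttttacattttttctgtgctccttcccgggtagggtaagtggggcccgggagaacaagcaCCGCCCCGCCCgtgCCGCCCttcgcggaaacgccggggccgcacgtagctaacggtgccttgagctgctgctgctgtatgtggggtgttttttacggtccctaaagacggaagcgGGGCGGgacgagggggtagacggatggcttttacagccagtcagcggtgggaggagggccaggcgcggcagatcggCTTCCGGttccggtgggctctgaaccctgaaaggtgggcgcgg
MRPS34: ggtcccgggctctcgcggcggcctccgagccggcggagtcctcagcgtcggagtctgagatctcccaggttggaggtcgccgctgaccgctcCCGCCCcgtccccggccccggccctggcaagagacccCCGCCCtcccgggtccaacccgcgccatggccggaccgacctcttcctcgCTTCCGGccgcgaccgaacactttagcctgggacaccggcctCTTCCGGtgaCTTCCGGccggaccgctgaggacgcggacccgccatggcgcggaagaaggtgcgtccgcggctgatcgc
MRPS6: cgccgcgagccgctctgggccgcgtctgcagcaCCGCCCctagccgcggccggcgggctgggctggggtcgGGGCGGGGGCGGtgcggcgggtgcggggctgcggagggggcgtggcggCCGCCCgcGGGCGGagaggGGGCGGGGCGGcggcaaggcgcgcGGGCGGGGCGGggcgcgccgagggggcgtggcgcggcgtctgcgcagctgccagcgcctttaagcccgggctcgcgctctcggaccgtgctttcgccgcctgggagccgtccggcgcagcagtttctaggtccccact
MRPS10: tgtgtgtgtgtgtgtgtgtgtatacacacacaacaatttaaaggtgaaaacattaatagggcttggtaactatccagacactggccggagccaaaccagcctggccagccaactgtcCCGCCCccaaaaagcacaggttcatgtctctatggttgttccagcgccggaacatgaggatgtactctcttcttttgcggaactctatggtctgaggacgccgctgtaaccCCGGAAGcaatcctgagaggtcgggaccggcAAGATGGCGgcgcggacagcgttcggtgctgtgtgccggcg
Melatonin responses in FPKM were close in members with and without the ETS letters, with medians of -0.23 (28 members) and -0.16 (40 members) in JJ012 and of 0.26 and 0.19 in 143B. Between the control lines the members with ETS letters had a median log2 fold change of 1.13 (JJ012 over 143B) and those without of 0.33. Of the members with the YY1 letters the medians were -0.024 in JJ012, 0.17 in 143B and 0.16 between the controls, against -0.28, 0.21 and 0.89 for those without. Between the controls, the medians with and without the letters were also apart for SP1 (1.00 and 0.30) and NRF1 (0.38 and 0.78). The groups were small and no test was made.

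In 143B, most members were slightly higher after melatonin. Of the 77 tested, 61 (79.2%) had a log2 fold change above 0, where 53.6% of all 14135 genes tested did, and 16 (20.8%) below 0, where 46.1% did. The median member was at 0.21 (quartiles 0.059 and 0.36) and the median gene at 0.026. Single changes were small, and 2 members rose by 0.58 or more, where 6.09% of all genes did, and 1 fell, where 6.65% of all genes did. Scaling moved the rises between 1 when centred on the median gene (1.30%, all genes 5.47%) and 8 in CPM (10.4%, all genes 7.36%). In each case 1 member fell (1.30%), where 7.17% and 6.49% of all genes did. The counting interval lay above 0 for 45 members (58.4%), where it did for 28.4% of all genes, and below 0 for 6 (7.79%), where it did for 23.5%.

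MRPS26 (ENSG00000125901, chr20:3046052-3048250 of hg38, plus strand), a small-subunit protein without bacterial homolog, rose most in 143B. It had 8.98 FPKM in the 143B control and 17.1 FPKM after melatonin, against 19.2 FPKM in the JJ012 control and 22.4 FPKM after melatonin. Its log2 fold change was 0.86 in 143B (log2 CPM ratio 0.93, interval 0.64 to 1.22) and 0.21 in JJ012 (0.22, interval 0.0088 to 0.43). The 143B control was thus the low library of the 4, and after melatonin 143B came near the JJ012 levels. MRPL55, mitochondria-specific in the large subunit, rose from 4.24 to 6.86 FPKM in 143B, a log2 fold change of 0.59, and had 11.6 and 10.6 FPKM in JJ012. Both overlap no other gene of the table. Just under the threshold in 143B were MRPL58 (4.77 and 7.57 FPKM, 0.57), a peptidyl-tRNA hydrolase that became a part of the large subunit, and MRPS10 (7.67 and 11.8 FPKM, 0.56).

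MRPS6 (chr21:34073224-34143034 of hg38, plus strand) was the member that fell in 143B. Its log2 fold change was -0.83 in 143B (log2 CPM ratio -0.84, interval -0.91 to -0.78) and -1.00 in JJ012 (-1.05, interval -1.15 to -0.94), from the levels given above. No other member was past the threshold in both lines. Its table position spans SLC5A3 on the same strand, and 9.61% of its GENCODE 29 exon bases are shared with other genes there, so its counts cannot be fully told apart from those of SLC5A3 here.

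In JJ012 the members lay on both sides of 0, and in FPKM their median was below that of all genes. Of 77 tested, 3 rose, where 19.6% of all 15794 genes did, and 9 fell (11.7%), where 18.6% of all genes did. Both shares were below the background. The median was -0.11 (quartiles -0.42 and 0.13) against 0.0084 for all genes, with 47 members (61.0%) below 0, where 49.4% of all genes were, and 30 (39.0%) above 0, where 50.4% of all genes were. The counting interval was below 0 for 35 members (45.5%, all genes 35.2%) and above 0 for 18 (23.4%, all genes 36.9%). The sign of this median depended on the scale. It stayed below the median of all genes in TPM, in CPM, with TMM and with median-of-ratios size factors. With the length trend removed it was above it. In TPM, which rescales the length-normalized values of every library to 1 common sum, the median of all genes in JJ012 moved to 0.21 and the median member to 0.14, with 11 members up (14.1%, all genes 33.0%) and 7 down (8.97%, all genes 19.9%) by at least 0.58. With the trend over gene length removed the median member was at 0.044, with 8 up (10.4%, all genes 17.9%) and 4 down (5.19%, all genes 16.5%). With TMM scaling it was at -0.037, with 5 up (6.49%, all genes 21.5%) and 7 down (9.09%, all genes 15.9%). The sign against 0 changed with the scale, and the side of the background changed with the length trend. No direction is therefore given for the members as a group in JJ012.

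MRPL28 (ENSG00000086504, chr16:366969-371289 of hg38, minus strand), the homolog of bacterial L28, fell most in JJ012. It had 23.8 FPKM in control and 7.95 FPKM in treated JJ012, against 4.31 and 3.68 FPKM in 143B. Its log2 fold change in JJ012 was -1.47 (log2 CPM ratio -1.58, interval -1.75 to -1.42). The JJ012 control was the high library of the 4, and the treated library was nearer to 143B. MRPL23, a protein at the exit of the large subunit's peptide tunnel, had 7.52 FPKM in the JJ012 control, 2.67 FPKM after melatonin, and 6.62 and 4.72 FPKM in 143B. It fell in JJ012 by 1.22 on the log2 scale (log2 CPM ratio -1.50, interval -1.79 to -1.21) and had a value of -0.41 in 143B (log2 CPM ratio -0.49, interval -0.74 to -0.24). The intervals were thus below 0 in both lines, and treated JJ012 was the lowest library.

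MRPL14, which lies at the interface of the subunits, fell from 30.7 to 15.9 FPKM in JJ012 (-0.91) and had 24.9 and 23.6 FPKM in 143B (-0.071). MRPS34 fell from 65.9 to 35.2 FPKM (-0.89) and had 30.4 and 30.6 FPKM in 143B. MRPL11, at the base of the stalk that recruits translation factors, fell from 8.73 to 4.93 FPKM (-0.71) and had 7.54 and 9.96 FPKM in 143B (0.36). Treated JJ012 was the lowest library for MRPL14 and MRPL11, and for MRPS34 it came near the 143B libraries. The remaining falls were MRPS17 (2.48 to 1.21 FPKM, -0.66, on 41 counts after melatonin), MRPL1 (9.17 to 5.52 FPKM, -0.64) and MRPS18C (5.47 to 3.26 FPKM, -0.60). MRPL41 was just outside the threshold at -0.58 when rounded.

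All 9 members that fell in JJ012 overlap another gene of the table on either strand, as do 49 of all 78 members. None of the 29 members without such an overlap fell, where 18.6% of all genes did, and their median was -0.19. Since the strand setting of the counting is not given in the sources used here, reads of overlapping genes on opposite strands cannot be told apart. EME2 faces MRPS34 and TMEM63B faces MRPL14, both sharing 0 exon bases in GENCODE 29, MRPL23-AS1 faces MRPL23 and shares 2.86% of its exon bases, and ABRAXAS1 shares 40.2% of the exon bases of MRPS18C. MRPL28 shares 7.33% of its exon bases with PGAP6 on its own strand, and MRPS17 shares 27.0% with NIPSNAP2 and a neighbour.

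Of the members that rose in JJ012, MRPS30 (ENSG00000112996, chr5:44808947-44820428 of hg38, plus strand), a mitochondria-specific protein of the large subunit, had 4.81 FPKM in the JJ012 control and 8.86 FPKM after melatonin, against 14.4 and 15.6 FPKM in 143B. Its log2 fold change was 0.76 (log2 CPM ratio 0.88, interval 0.73 to 1.04), and both JJ012 libraries stayed below both 143B libraries. MRPL15, a homolog of bacterial L15, rose from 18.5 to 31.8 FPKM in JJ012 (0.75; log2 CPM ratio 0.78, interval 0.63 to 0.93) and had 16.8 and 14.5 FPKM in 143B (-0.20). The treated JJ012 library was the high one of the 4. MRPL19 rose from 3.59 to 5.97 FPKM (0.60) and had 3.94 and 4.21 FPKM in 143B. MRPS35 (20.3 and 29.7 FPKM, 0.53), MRPL35 (5.89 and 8.89 FPKM, 0.52) and MRPS5 (1.15 and 1.96 FPKM, 0.46) were below the threshold.

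By subunit, the JJ012 medians in FPKM were -0.22 for 50 large-subunit and -0.088 for 26 small-subunit members (0.020 and 0.18 in TPM), and the 143B medians 0.17 and 0.28 (0.13 and 0.27 in TPM). Proteins with a bacterial homolog (45 members) had FPKM medians of -0.22 in JJ012 and 0.21 in 143B, and mitochondria-specific proteins (31 tested members) of -0.086 and 0.20. In JJ012, 8 of the 9 falls were in the former (17.8% of them, where 18.6% of all genes fell) and 1, MRPS34, in the latter (3.23%). The quartiles of all these groups overlapped within a line.

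Set side by side, the log2 fold change in JJ012 was the lower one in 62 of 77 members (80.5%), against 48.5% of the 11822 genes tested in both lines. This was 46 of 78 (59.0%, all genes 37.1%) in TPM and 51 of 77 (66.2%, all genes 48.6%) with the length trend removed. In 35 members (45.5%, all genes 25.1%) it was below 0 in JJ012 and above 0 in 143B, which held for 23 members in TPM (29.5%, all genes 16.9%) and 23 with the length trend removed (29.9%, all genes 23.1%). In FPKM it was in 26 above 0 in both, in 12 below 0 in both and in 4 above 0 in JJ012 and below 0 in 143B. The counting interval of JJ012 lay wholly below that of 143B in 39 members (50.6%, all genes 27.6%) and wholly above it in 5 (6.49%, all genes 31.5%). Intervals away from 0 in both lines put 14 members (18.2%, all genes 10.5%) below 0 in JJ012 and above 0 in 143B, 12 (15.6%, all genes 14.2%) above 0 in both, 3 (3.90%, all genes 8.48%) below 0 in both and 2 (2.60%, all genes 11.0%) above 0 in JJ012 and below 0 in 143B. MRPL40, mitochondria-specific in the large subunit, had 20.6 and 14.2 FPKM in JJ012 (-0.50) and 4.43 and 6.48 FPKM in 143B (0.46). MRPL12, a stalk protein also reported to bind the mitochondrial RNA polymerase, had 24.3 and 18.7 FPKM in JJ012 (-0.37) and 7.61 and 11.0 FPKM in 143B (0.48), though 68.2% of its exon bases are shared with a transcript of the same strand. MRPL57 had 5.41 and 3.61 FPKM in JJ012 (-0.48) and 3.16 and 4.98 FPKM in 143B (0.52). For MRPL40 and MRPL12 the levels of the lines came closer after melatonin, and for MRPL57 their order crossed. With 1 library per condition, whether the responses of the lines differ beyond the variation between cultures was not tested. Taking the lines as blocks, edgeR's quasi-likelihood test for a response shared by both called 0 of 77 members at an adjusted p of 0.05, where 0.0622% of all 19301 genes were called higher and 0.29% lower. Before adjustment 3 members (3.90%, all genes 5.90%) had a p under 0.05 in this test, all lower. It has 1 residual degree of freedom, which holds the difference between the responses of the lines.

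**Figure D2:**
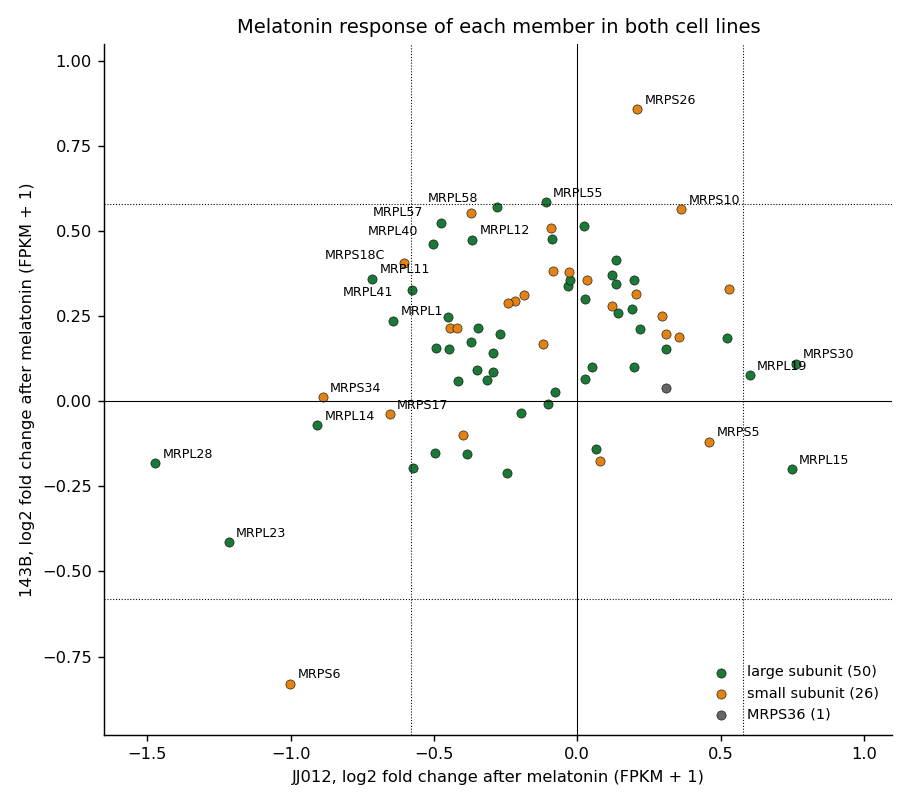
log2 fold change after melatonin in JJ012 (x axis) and 143B (y axis) of the 77 tested members, coloured by subunit; dotted lines mark 0.58 and -0.58, and the scale is FPKM + 1. The upper left field holds 35 members and the upper right 26, and MRPS6 is alone at lower left beyond both thresholds. In TPM the JJ012 median moves from -0.11 to 0.14, and that of all genes from 0.0084 to 0.21.

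**Figure D3:**
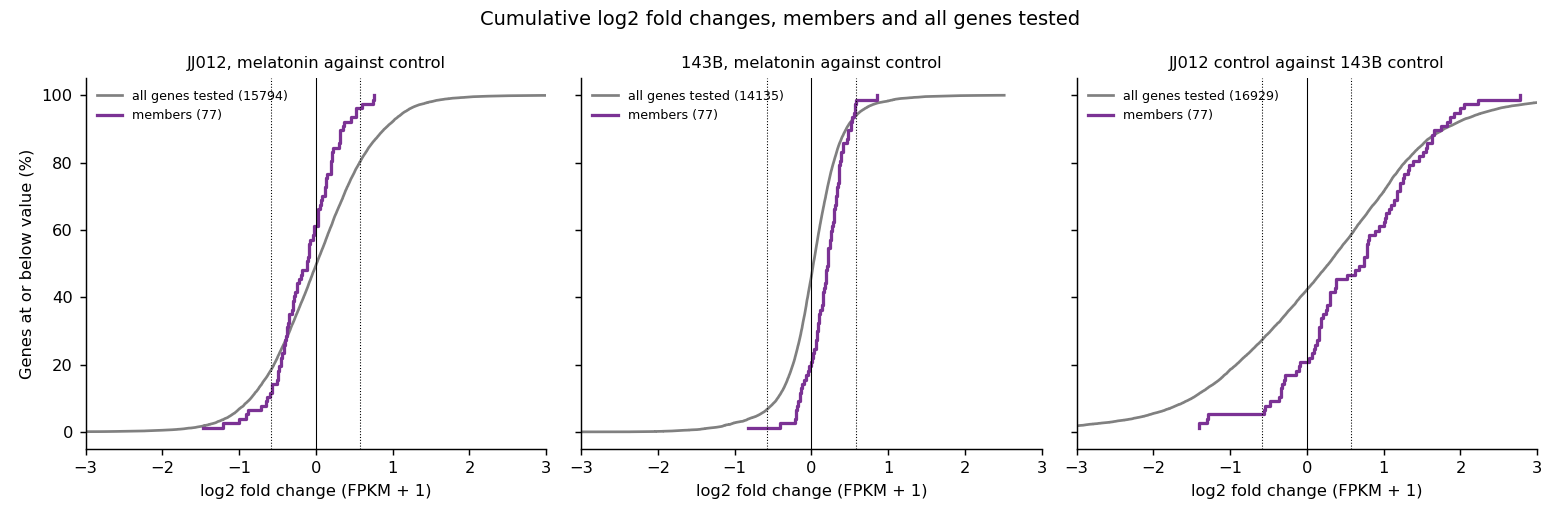
Cumulative share of genes (y axis, percent) at or below a log2 fold change (x axis) for the tested members (purple) and all genes tested (grey) in the 3 comparisons; dotted lines mark 0.58 and -0.58, and genes beyond the axis are not drawn. The member curve is to the right of all genes in 143B (medians 0.21 and 0.026) and between the controls (0.74 and 0.29). In JJ012 it is steeper than that of all genes (medians -0.11 and 0.0084, in TPM 0.14 and 0.21).

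In FPKM, most members were higher in untreated JJ012 than in untreated 143B, by an amount that depended on the scale. Of 77 members, 41 (53.2%) were higher in JJ012 by at least 0.58, where 41.3% of all 16929 genes were, and 4 (5.19%) were lower, where 27.4% of all genes were. The median log2 fold change was 0.74 against 0.29 for all genes, and 16 members (20.8%) were below 0, where 42.2% of all genes were. With TMM scaling, which moved the median of all genes to 0.013, 32 members were higher (41.6%, all genes 33.6%) and 12 lower (15.6%, all genes 34.2%). With the length trend removed, 39 of 77 (50.6%, all genes 50.1%) were above 0, with 18 higher (23.4%, all genes 30.0%) and 17 lower (22.1%, all genes 32.5%). MRPL24, a homolog of bacterial L24 at the tunnel exit, was furthest apart with 40.3 FPKM in the JJ012 control and 5.01 FPKM in the 143B control, a log2 fold change of 2.78 (log2 CPM ratio 3.01, interval 2.75 to 3.27). MRPL28 (23.8 and 4.31 FPKM, 2.23), MRPL41 (112 and 26.4 FPKM, 2.05), MRPL40 (20.6 and 4.43 FPKM, 1.99) and MRPL58 (20.8 and 4.77 FPKM, 1.92) followed, all of the large subunit. As groups, the large subunit had a median of 0.68 and the small subunit of 0.81, with 52.0% and 53.8% higher by at least 0.58. On the other side MRPS30 had 4.81 FPKM in the JJ012 control and 14.4 FPKM in the 143B control (-1.41), MRPS5, the homolog of bacterial S5, 1.15 and 4.67 FPKM (-1.40), MRPS6 31.6 and 79.2 FPKM (-1.30) and MRPS17 2.48 and 7.46 FPKM (-1.28). MRPS35 (20.3 and 30.2 FPKM, -0.55) was the next. How much of this belongs to chondrosarcoma and osteosarcoma and how much to these particular lines cannot be told apart.

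Gene length moved with the fold change in JJ012 and between the controls, and little in 143B. The members are short, with a median exonic length of 2544 bases against 4067.5 bases for all genes tested in JJ012. Across protein-coding genes Spearman's rho between exonic length and log2 fold change was 0.40 in JJ012, -0.13 in 143B and -0.30 between the controls. It was weaker across all genes tested (0.24, -0.0084 and -0.15), and 0.27, -0.086 and -0.43 across the members. The points share libraries, lengths and depth, and no p is given. With the running median over exonic length taken off, the member median was 0.044 in JJ012, 0.15 in 143B and 0.10 between the controls. In 143B, 58 of 77 members (75.3%) were above 0 on that scale, on which all genes lie evenly on both sides of 0 by construction.

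**Figure D4:**
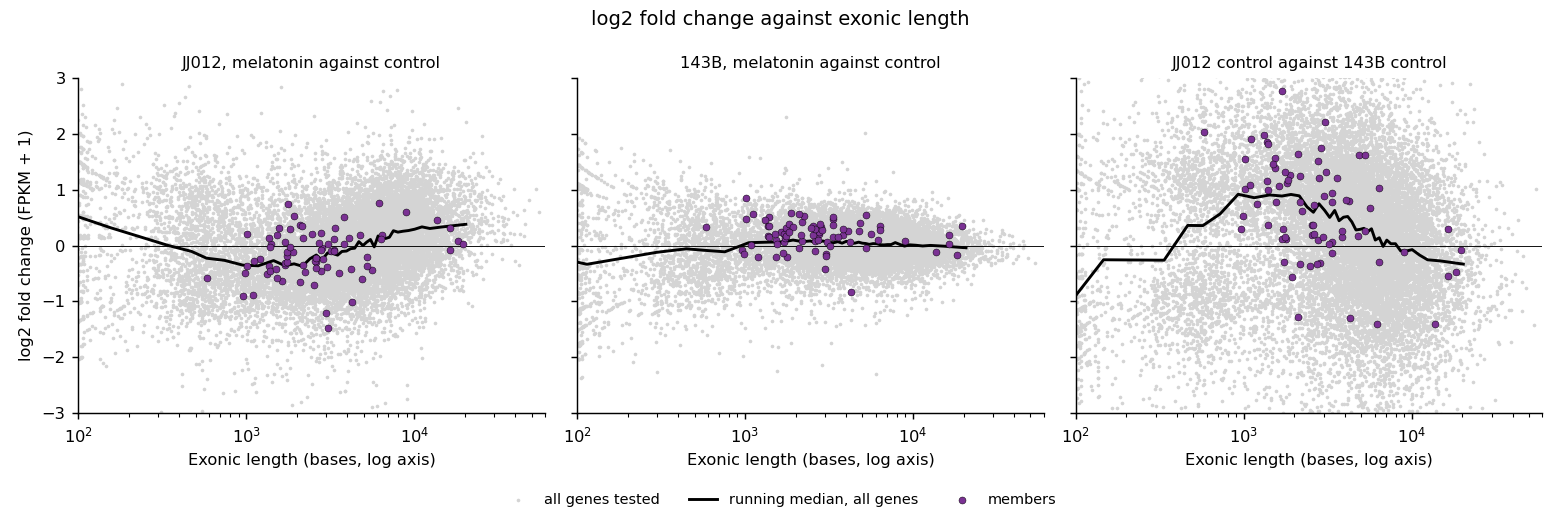
log2 fold change (FPKM + 1) against exonic length (log axis) for all genes tested (grey), their running median (black line) and the members (purple) in the 3 comparisons; genes beyond the axes are not drawn. The members follow the low part of the black line in JJ012 (median 0.044 with the trend removed, -0.11 with it), lie mostly above it in 143B (0.15), and spread around its high part between the controls (0.10).

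Most mitochondrially encoded mRNAs passed the threshold in each line. Of the 13 mitochondrially encoded mRNAs, 10 fell and 0 rose in JJ012 (median -1.15, of all genes 18.6% fell and 19.6% rose), and 12 rose and 0 fell in 143B (median 0.77, of all genes 6.09% rose and 6.65% fell). The rRNAs that these proteins bind are measured only as far as poly(A) selection keeps them. The small-subunit rRNA MT-RNR1 had 1570 FPKM in the JJ012 control, 1275 FPKM after melatonin, 445 FPKM in the 143B control and 521 FPKM after melatonin (-0.30 in JJ012 and 0.23 in 143B). The large-subunit rRNA MT-RNR2 had 11819, 10674, 4146 and 5191 FPKM (-0.15 and 0.32). Both were higher in JJ012 than in 143B, and neither passed the threshold with melatonin.

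Of 5 mitoribosomal proteins that carry other symbols, 2 fell in JJ012, where 18.6% of all genes did, namely CHCHD1 (14.8 to 7.23 FPKM, -0.94) and GADD45GIP1 (15.2 to 6.44 FPKM, -1.12), with a list median of -0.52, and none changed in 143B (median 0.047). DAP3, a GTP-binding protein of the small subunit, had 23.9 and 30.9 FPKM in JJ012 (0.36) and 5.82 and 6.02 FPKM in 143B (0.042). Among factors of mitochondrial translation and mitoribosome assembly, 8 of 39 tested rose (20.5%, all genes 19.6%) and 3 fell (7.69%, all genes 18.6%) in JJ012, with a median of 0.21, and 2 of 37 rose (5.41%, all genes 6.09%) and 0 fell (all genes 6.65%) in 143B, with a median of 0.27. The shares that rose were thus near the background in both lines. TUFM, the elongation factor that brings aminoacyl-tRNA to this ribosome, fell from 98.9 to 61.8 FPKM in JJ012 (-0.67), while GFM1, the translocating elongation factor, rose from 2.56 to 5.39 FPKM (0.84).

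For nuclear OXPHOS subunits, 20 of 81 fell (24.7%, all genes 18.6%) and 1 rose (1.23%, all genes 19.6%) in JJ012, with a median of -0.44, and 2 of 79 rose (2.53%, all genes 6.09%) and 0 fell in 143B, with a median of 0.14. Cytosolic ribosomal protein genes had 11 falls among 81 tested (13.6%, below the share of all genes) and 1 rise (1.23%) in JJ012, with a median of -0.38, and 0 of 82 changed in 143B, with a median of -0.043. The member median was thus above that of both lists in each line, a difference that was not tested. Between the controls the OXPHOS median was 0.96 and that of the cytosolic ribosomal proteins -0.93, with the members at 0.74.

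**Figure D5:**
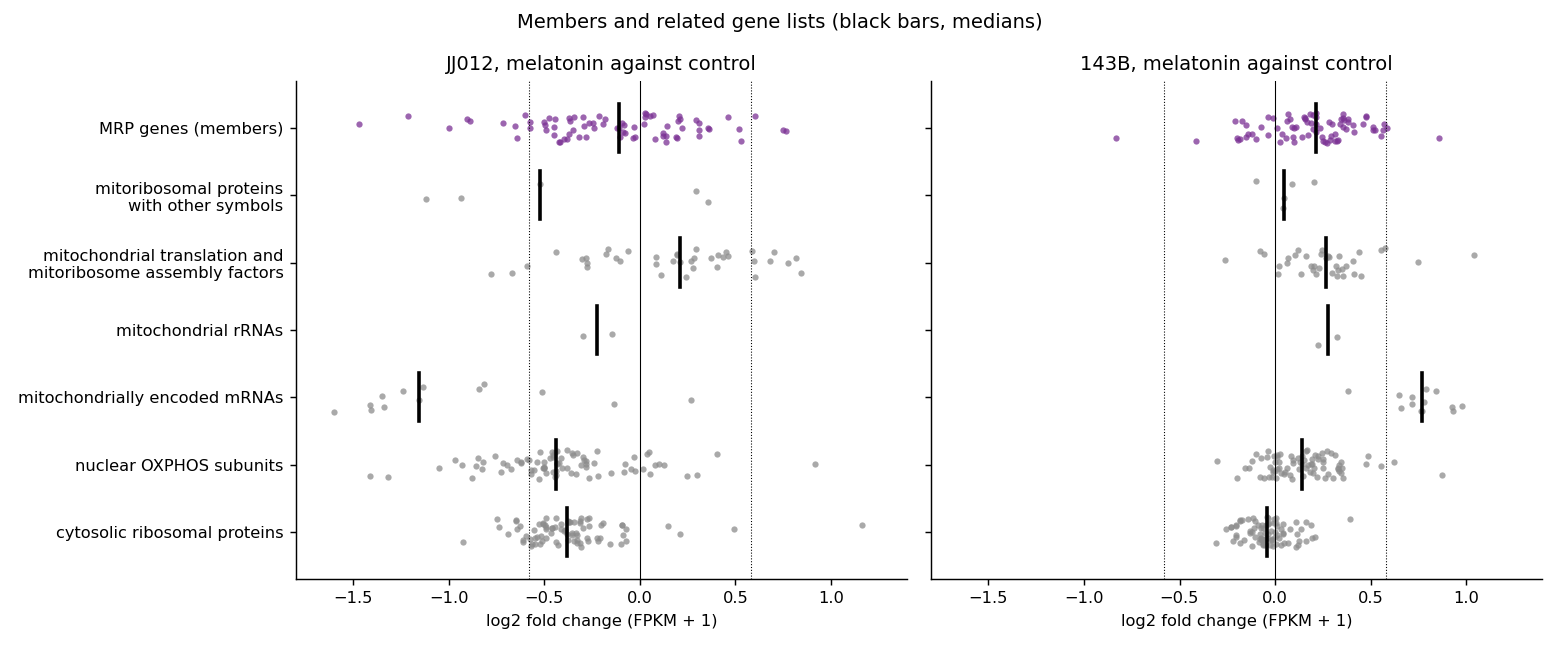
log2 fold change after melatonin (FPKM + 1) of each tested gene in 7 lists in JJ012 (left) and 143B (right); black bars are medians and dotted lines mark 0.58 and -0.58, with vertical scatter only to separate points. The members (purple) have medians of -0.11 in JJ012 (0.14 in TPM, where all genes have 0.21) and 0.21 in 143B. The mitochondrially encoded mRNAs have -1.15 and 0.77.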

How the data were processed

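Poly(A) RNA from 4 libraries was sequenced by the authors as paired ends. Columns were assigned through the cell line in their names, with the suffix T taken to mean treated with melatonin. Raw counts (whole numbers) and exonic lengths per gene were deposited. The deposited FPKM are these counts normalized by the authors to exonic length and library total, which was checked by recomputation (100% of values within rounding). The submitters' processing notes name cutadapt 1.9.1, HISAT2 2.2.1, HTSeq 0.6.1, DESeq2 and the build hg38. The strand setting is not given in the sources used here.

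The members and lists were chosen with earlier results of these data known. log2 fold changes used a pseudocount of 1 FPKM for genes that reached 1 FPKM in either library compared. With 1 library per condition no test was made within a line. A response shared by both lines was tested with edgeR's quasi-likelihood test on the deposited counts (TMM, Benjamini-Hochberg adjustment), with the line as a block, for 19301 genes that passed edgeR's filter. Exact Clopper-Pearson 95% intervals of CPM ratios cover counting error only, and 3 counts correspond to 0.156 to 0.189 CPM. Named genes are members past 0.58 in either line (at most 8 per direction), the 5 highest and 5 lowest in mean FPKM, the 5 with the largest difference between lines and between controls in each direction, and MRPL12, DAP3, MT-RNR1 and MT-RNR2. MRPS10, the promoter-less members and further list genes were named after their values were seen. Lists were the mitoribosomal proteins with other symbols, translation and assembly factors, mitochondrially encoded mRNAs, mitochondrial rRNAs, nuclear OXPHOS subunits and cytosolic ribosomal proteins without the Y-linked ones. The alternatives were other pseudocounts, filters, thresholds and scalings, the length trend, the background and overlapping genes, and those added after seeing the data were the principal transcript length, members without a shared exon, members without a pseudogene, the scalings of the comparison of both lines and the fit with the line as a block. Overlaps and transcripts came from GENCODE 29, in which all 78 members were found at their chromosome. Tools were R 4.3.3 for edgeR 4.0.16 (TMM factors) and DESeq2 1.42.0 (size factors), and Python 3.11.15, matplotlib 3.10.9, pandas 2.3.3, scipy 1.17.1 and numpy 2.4.6. The procedures were tested on simulated data. For the fit with the line as a block, the simulated lines shared the mean level and the response of every gene. The real lines differ in level and may differ in response, so that simulation cannot show how the fit performs on them.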

Additional observations from a re-analysis of the deposited data

Results flagged for a closer look

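Some values had opposite signs in the lines, with counting intervals away from 0 in both. The difference between the lines was not tested, since each line has 1 library per condition. The log2 fold changes after melatonin, JJ012 first and 143B second, were -0.71 and 0.36 for MRPL11, -0.37 and 0.48 for MRPL12, -0.50 and 0.46 for MRPL40, -0.58 and 0.33 for MRPL41, -0.48 and 0.52 for MRPL57, and -0.28 and 0.57 for MRPL58. They were -0.44 and 0.21 for MRPS11, -0.60 and 0.41 for MRPS18C, and -0.42 and 0.21 for MRPS21. MRPL15 (0.75 and -0.20) and MRPS5 (0.46 and -0.12) had the opposite order. Of these 11 members, 10 kept opposite signs under every pseudocount and scaling tried. MRPL58 did not with the length trend removed (0.076 in JJ012 and 0.52 in 143B). Only named members were looked at here, some of them named for a large difference between the lines, so kept signs follow in part from that choice. Among all 77 tested members, such intervals put 14 (18.2%, all genes 10.5%) below 0 in JJ012 and above 0 in 143B. They put 2 (2.60%, all genes 11.0%) the other way. The medians of the members were -0.11 in JJ012 (0.14 in TPM, where all genes had 0.21) and 0.21 in 143B. Those of the mitochondrially encoded mRNAs were -1.15 and 0.77.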

How the results depend on the processing

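One library per condition leaves the variation between cultures unmeasured, and a low member such as MRPL53 rests on 2 to 13 counts. Under the alternatives, 353 values of named genes stayed within the counting interval, 53 left it and 0 changed sign as called genes.

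The JJ012 median of -0.11 changed sign in TPM (0.14, where all genes had 0.21) and with the length trend removed (0.044, and 0.044 less that of all genes). The members that rose in JJ012 were 3 (3.90%, all genes 19.6%), and 5 with a pseudocount of 0.1 FPKM (6.49%, all genes 24.5%). They were 11 in TPM (14.1%, all genes 33.0%), 5 with TMM (6.49%, all genes 21.5%) and 8 without the length trend (10.4%, all genes 17.9%). At a threshold of 1 there were 0 (all genes 7.86%). Those that fell were 9 (11.7%, all genes 18.6%), 4 without the length trend (5.19%, all genes 16.5%) and 3 at a threshold of 1 (3.90%, all genes 6.88%). Of the 29 that overlap no other gene 0 fell, and of the 37 that share no exon 3 fell (8.11%, all genes 18.6%).

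In 143B, the median of 0.21 lay between 0.15 (length trend removed) and 0.23 (TMM) over the alternatives. The members that rose were 2 (2.60%, all genes 6.09%), and 9 with a pseudocount of 0.1 FPKM (11.7%, all genes 10.7%). They were 8 in CPM (10.4%, all genes 7.36%), 5 with TMM (6.49%, all genes 6.76%) and 4 in TPM (5.13%, all genes 13.2%). There was 1 each (1.30%) when centred on the median gene, with median-of-ratios size factors or without the length trend (all genes 5.47%, 5.77% and 5.77%). At a threshold of 1 there were 0 (all genes 1.71%). MRPS6 was the member that fell, so that 0 fell at a threshold of 1 (all genes 2.74%). For the same reason 0 fell among members without an overlap, without a shared exon or without a pseudogene (all genes 6.65%).

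The 35 members below 0 in JJ012 and above 0 in 143B (45.5%, all genes 25.1%) were 23 in TPM (29.5%, all genes 16.9%) and 23 without the length trend (29.9%, all genes 23.1%).

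Between the controls, 41 members were higher (53.2%, all genes 41.3%) and 4 lower (5.19%, all genes 27.4%). Lower were 12 (15.6%) when centred, with TMM or with size factors (all genes 34.5%, 34.2% and 33.1%). In TPM 13 were lower (16.7%, all genes 36.5%). Without the length trend 17 were lower (22.1%, all genes 32.5%) and 18 higher (23.4%, all genes 30.0%), with a median of 0.10. Without a filter the median exceeded that of all genes by 0.74. Members without an overlap (18 higher, 1 lower), without a shared exon (21 and 1) or without a pseudogene (25 and 1) are fewer by construction. As shares, 62.1%, 56.8% and 59.5% of them were higher (all genes 41.3%) and 3.45%, 2.70% and 2.38% lower (all genes 27.4%). With principal transcripts as length, the small-subunit share was 32.7% in melatonin-treated JJ012, 44.6% in the 143B control and 39.3% after melatonin. On the plus strand alone, 23.2% of members held the ETS letters, against 5.98% of all genes and 10.9% of those with at least 1 FPKM. For the SP1 letters these shares were 34.8%, 29.9% and 48.4%. Over both lines with the cell line as a block, edgeR's quasi-likelihood test called 0 of 77 members at an adjusted p of 0.05.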

Other observations

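The order of the members by level depended on which length was used. For some members the deposited exonic length differed from the bases of all exons in GENCODE 29. These were 16385 and 5382 bases for MRPS22, 19524 and 6511 for MRPS27, 13738 and 6719 for MRPS5, and 582 and 1262 for MRPL41. The shares of exon bases given above are of GENCODE 29 exons. The exonic length of the table was 1.55 times (median) the length of the principal transcript of GENCODE 29. It was over 5 times as long for MRPL46, MRPS22, MRPS27 and MRPS5. By mean FPKM MRPS22 took place 72 of 78 and by counts normalized to the principal transcript and the library total place 21. MRPS5 took places 69 and 29, MRPS27 places 71 and 35, and MRPL46 places 77 and 65. MRPL41, whose exonic length of 582 bases is shorter than its principal transcript of 1262 bases, took places 2 and 25. MRPS6 took places 3 and 1, and MRPS21 places 1 and 2. Spearman's rho between both orders was 0.76 over the 78 members, and it leaves the fold changes of a gene between libraries as they are, apart from the pseudocount.

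For 36 members the table lists 79 pseudogenes under their symbols. These held between 114 and 202 counts per library in all, or 0.291% to 0.474% of the counts of the members.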
